A study of Mus musculus with 18 samples.

Results

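The deposited table lists 2653 somatic variant calls at 2101 distinct sites, and 685 of the calls (25.8%) carry a flag for a variant already present in a variant database. These database-marked calls, taken over every leukemia with no other selection, fell on 651 distinct sites (31% of all sites), on 16 chromosomes and in 308 genes or intervals between genes. Exomes of 17 leukemias were compared with the exome of 1 wild-type C57Bl6-NIH mouse, whose tail DNA served as the normal for all of them. Every leukemia came from an NP23-NHD13 double transgenic mouse on the C57Bl6-NIH background with the disease label Thymic AML, an acute myeloid leukemia. Thymus was sampled in 11 mice and bone marrow in 6, and each leukemia is named here by the mouse number in its title (M18 to M61). Of the mouse numbers, 9 end in NN and 8 do not, a difference in naming whose meaning the labels do not give. NP23 and NHD13 are transgenes for NUP98-PHF23 and NUP98-HOXD13, fusion proteins found in human leukemia that Vav1 regulatory elements drive in blood cells, and all 17 leukemias carry both. DNA variants give no expression markers, so the tissue labels were not checked.

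A variant database collects positions at which individuals or inbred strains of a species have been seen to differ. Inbred mouse strains differ in long blocks, because neighbouring variants on a chromosome are inherited together, and a block from another strain appears as a run of listed variants with similar allele fractions. A matched normal sample from the same animal removes inherited variants from a somatic list, whereas an unmatched normal can remove only those that both animals carry. The table's fields name no strain for any variant, so the origin of the marked calls was not tested. By the database fields, 325 marked calls were first listed in build 125, 111 in build 127, 111 in build 137 and 64 in build 126, and 478 (69.8%) had the field for an independently checked variant. The flag and the fields were not fully matched, since 3 calls without the flag carried database fields. These were Phldb1 P1329P in M19, at a site marked in 8 other leukemias, and Pask H1144H and Slc19a2 C197C in M31.

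Marked calls were nearly all single-base substitutions, 672 of 685, and the other 13 were all deletions in M31. The longer deletions, and 2 marked sites whose surroundings RefSeq gives (GRCm38.p6, the build of the mm10 coordinates used by the authors), are printed to show what the calls look like. Capitals mark the deleted bases after the anchor base of each deletion, or the substituted base in its window, and all are on the plus strand.

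Pign intron, anchor base at chromosome 1, position 105554020: tTTAAATCAATCAC

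Sox13 intron, anchor base at chromosome 1, position 133389294: gAGGACTC

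Uqcc2 intron, anchor base at chromosome 17, position 27133547: cTCAGGGCCGCTTCACTGACT

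Sfr1 5′ UTR, reference, chr19:47731767-47731791: gcgctccgctggCtgtgtgtacggt

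Sfr1 5′ UTR, called allele: gcgctccgctggTtgtgtgtacggt

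Zfp648 5′ UTR, reference, chr1:154204051-154204075: caagcgaaggctCtttctgggagga

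Zfp648 5′ UTR, called allele: caagcgaaggctTtttctgggagga

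The Pign deletion removed 13 bases and was read in 19 of 47 reads, and the Sox13 deletion removed 7 bases and was read in 21 of 74. The Uqcc2 deletion, the longest at 20 bases, was read in only 3 of 103. No alternative read was seen in the wild-type mouse at any of these 3. Sfr1, a partner of the recombination protein Swi5, had its substitution 23 bases after the RefSeq start in 20 of 68 reads. The deposited annotation calls it a gain of a premature start codon, and no ATG was formed at the substituted base. Across all sites of the table that fall in RefSeq promoter windows (250 bases before to 50 after a start), the reference base matched at 26 of 26. None of the 13 marked indels was an insertion, whereas the calls without the flag held 21 insertions and 2 deletions inside the tracts defined below, and 276 insertions and 67 deletions outside them.

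The marked calls were concentrated in 1 leukemia. M31, a thymus leukemia, held 607, which was 68.6% of its own calls, and M57, a bone marrow leukemia, held 22, or 26.8% of its calls. The other 15 leukemias held 1 to 9 each. The thymus leukemias had 5 marked calls in M53, in M54 and in M55, 9 in M56, 7 in M22, 4 in M61, 3 in M18, 2 in M19 and in M21, and 1 in M20. The bone marrow leukemias other than M57 had 4 in M24, 3 in M60, and 2 in M23, M58 and M59. M31 stood above every other leukemia by more than an order of magnitude, and without it and M57 the bone marrow leukemias (2 to 4) lay inside the range of the thymus leukemias (1 to 9).

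The mean number of marked calls was 59.1 ± 181.7 (SD, n = 11) in thymus and 5.83 ± 7.96 (SD, n = 6) in bone marrow. Their difference, 53.3, did not pass the exact two-sided permutation test over 12376 assignments (p = 0.781). Without M31 the difference was −1.53 (exact permutation p = 0.734). Mice without NN in their number had 78.5 ± 213.6 (SD, n = 8) and NN mice 6.33 ± 6.25 (SD, n = 9), a difference of 72.2 (exact two-sided permutation p = 0.445), which was −3.33 without M31 (p = 0.187 by the same exact test). Both differences were thus set by 1 leukemia. Within NN mice thymus minus bone marrow was −1.65, and within bone marrow the mean without NN minus the mean with NN was −4.25. Both values rest on the NN bone marrow leukemias, M57 with 22, M60 with 3, and M58 and M59 with 2 each.

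**Figure D1:**
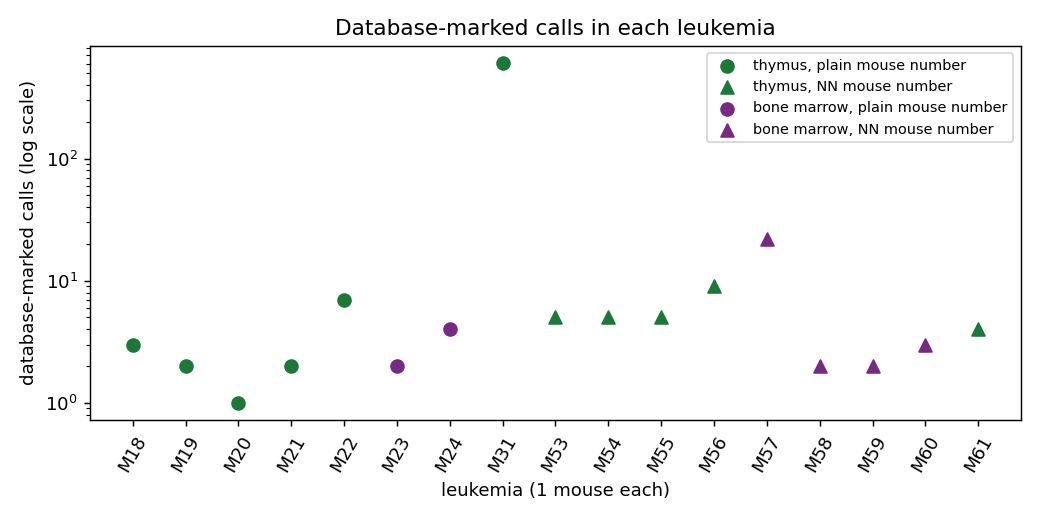
Number of database-marked calls (vertical axis, log scale) in each of 17 leukemias, with tissue as colour and the NN ending of the mouse number as shape; each point is 1 leukemia, without error bars. M31 stands at 607 and M57 at 22, and the other 15 lie between 1 and 9.

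Runs of marked calls were drawn as tracts, each a run of at least 10 marked calls of 1 leukemia on 1 chromosome with no gap over 5 Mb between neighbours. There were 9, holding 599 of the 685 marked calls, of which 8 were in M31 and 1 in M57. The M31 tracts spanned 81.6 Mb on chromosomes 1, 7 and 19 and held 583 of its 607 marked calls. Because the tracts are drawn from the marked calls, the share of marked calls inside them is a description and was not tested. The number and span of the tracts depend on the gap allowed. With at most 2 Mb there were 12 tracts, and those of M31 spanned 41.3 Mb with 550 marked calls. With at most 10 Mb there were 5, those of M31 spanned 105 Mb with 583 marked calls, and chromosome 1 became 1 tract from 93304940 to 165564000.

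On chromosome 1 of M31 the marked calls fell into 4 runs. The first, from 93304940 to 100478528, ran from Mterf4 Y63C to Cntnap5b M1188V with 32 marked calls, and the second, from 105554020 to 121461939, ran from the Pign deletion to Ccdc93 V237A with 46. The third was the longest at 30.2 Mb, from 128520323 between Dars and Cxcr4 to 158668718 at Astn1 T1114M, with 261 marked calls. The fourth was the shortest at 1.52 Mb, from Sele A56A at 164049324 to Adcy10 I1275I at 165564000, with 20. On chromosome 19 the runs held 35, 140 and 36 marked calls, from Anxa1 to Kcnv2 S473S, from Cep55 to Cfap58 I477I, and from Rbm20 G852R to Hspa12a L184L. The Cep55 call stood apart, in 6 of 176 reads and 4.14 Mb before the next marked call. The chromosome 7 run, from Tshz3 N364N at 36769679 to the interval between Vmn2r-ps54 and Vmn2r58 at 41745628, held 13 marked calls and 13 without the flag. Density ranged from 2.61 marked calls per Mb on chromosome 7 to 14.1 per Mb in the middle run of chromosome 19. With only calls at an allele fraction of at least 0.10, that middle run started at 42189152 and held 138 marked calls. The chromosome 7 run then ended at 39262047, and the M31 tracts spanned 74.95 Mb with 578 marked calls.

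Allele fractions, the caller's estimate of the share of reads with the variant, were alike across the M31 tracts. The median over their marked calls was 0.314 (interquartile range 0.266 to 0.364), and tract medians lay between 0.293 and 0.355. Pooled over a tract, the alternative allele took 25.7% to 33.9% of reads. The exact binomial interval of single marked calls held the pooled share of their tract at 75% of calls in the tract where this was least frequent and at 100% where it was most frequent. Of the 583 calls, 5 were below 0.10 and 6 above 0.5, the highest at 0.571 in an intron of Ptprc (CD45, a phosphatase of leukocytes; 15 of 25 reads). Calls without the flag inside the same tracts had a median of 0.294. In the chromosome 7 tract the unmarked median was 0.158 against 0.326 for marked calls, and the last marked call there stood at 0.065.

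At sites listed in 10 or more leukemias, marked or not, M31 had a median allele fraction of 0.319 over 22 calls. The medians of the other 16 leukemias at such sites ran from 0.419 in M19 to 0.553 in M20. M31 was thus the lowest there and close to its own tract median. The cause of this was not tested.

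**Figure D2:**
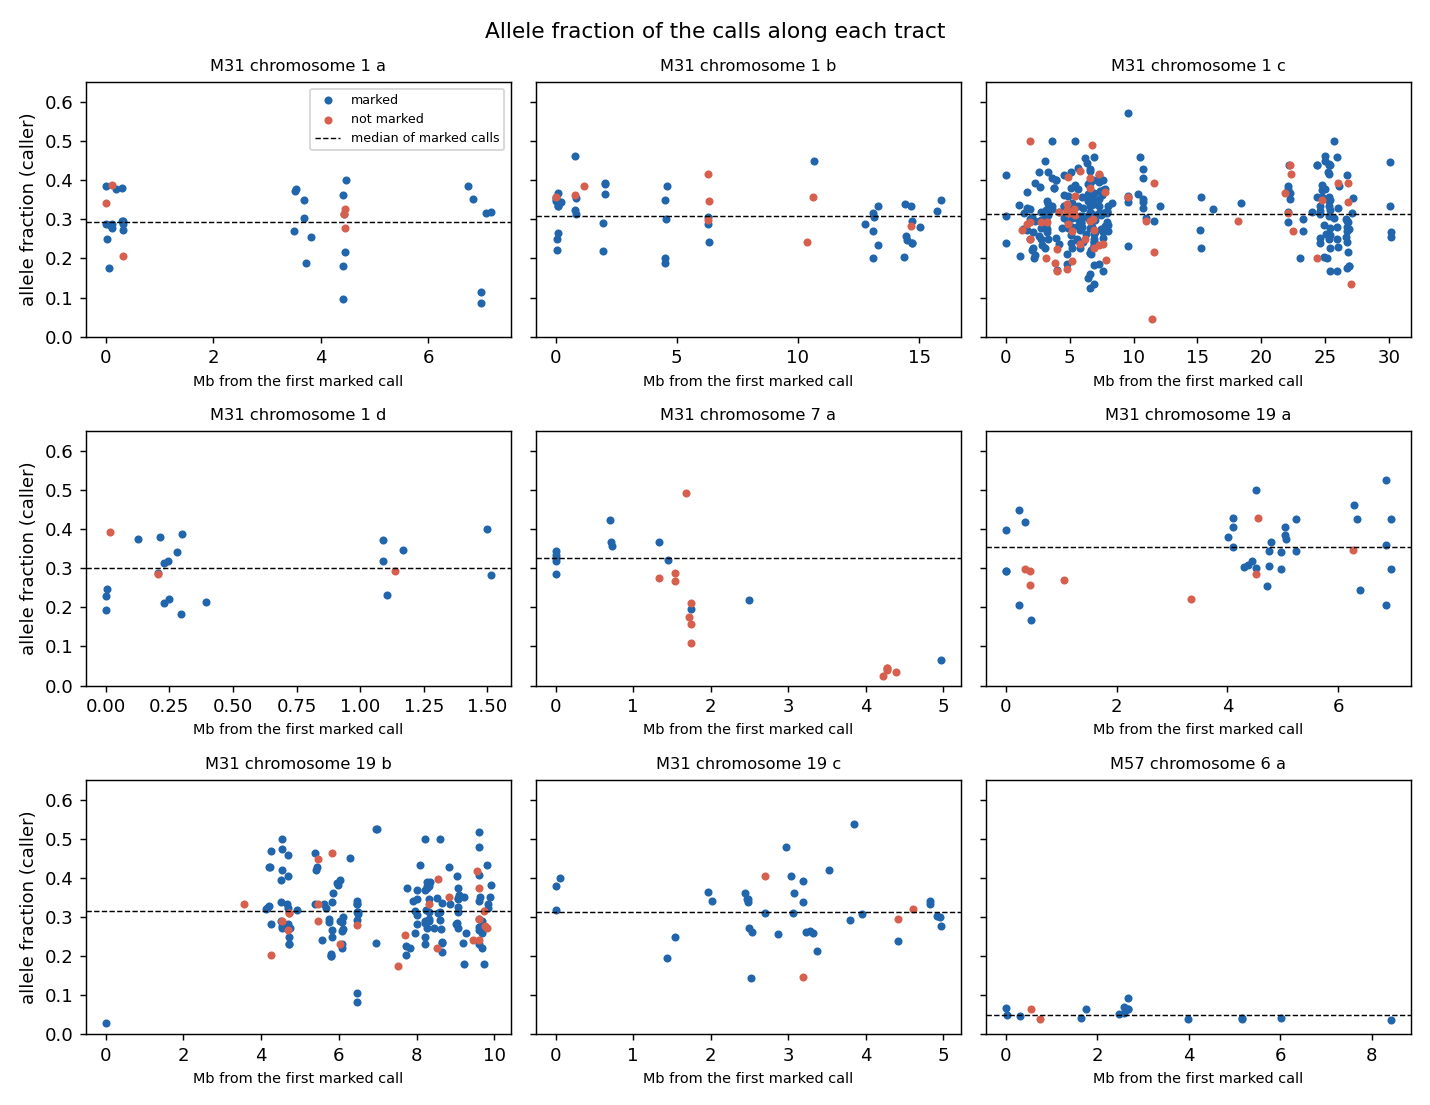
Allele fraction given by the caller (vertical axis) of every call inside each of the 9 tracts against its distance in Mb from the tract's first marked call; blue points are marked calls, red points are calls without the flag, and the dashed line is the median of the marked calls. In the 8 M31 tracts the medians lie between 0.293 and 0.355, and in the M57 tract at 0.0505.

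No site of the M31 tracts was called in another leukemia. The other leukemias had 37 calls inside the M31 intervals, from 13 leukemias, of which 4 were marked, with a median allele fraction of 0.039 (0.022 to 0.488). At the marked calls of all leukemias, the wild-type mouse was read 19 to 167 times (median 40), with no alternative read at 666 calls, 1 at 17 and more at 2. For the 583 marked calls in the M31 tracts, the normal sample, a different animal, had 1 alternative read at 14 calls, 2 at 1 call and none at the others. The caller used this same normal and only calls that passed its filter are listed, so these counts are no independent check.

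M57 held the only other tract, 16 marked calls over 8.43 Mb of chromosome 6, from Kbtbd12 P520P at 88586904 to Fam19a4 T17A at 97014438. Its allele fractions were low throughout, from 0.037 to 0.092 with a median of 0.0505. Pooled over the 16 calls, 88 of 1587 reads carried the alternative allele, 5.55% (exact Clopper-Pearson 95% interval 4.47 to 6.79). The interval of each single call held this pooled share. Even its highest allele fraction, 0.092, was below the lowest tract median of M31, 0.293. At sites listed in 10 or more leukemias M57 had a median of 0.477, and its unmarked calls had a median of 0.249. With calls of at least 0.10 only, the M57 tract was lost and the 8 of M31 stayed, with a shorter span of 74.95 Mb.

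The 4 protein-altering marked calls of the M57 tract were in Vmn1r53 (Y120C, a vomeronasal receptor), Uroc1 (H327R, urocanase of histidine breakdown), Nup210 (L425F, a nuclear pore membrane protein) and Fam19a4 (T17A, a secreted protein). Vmn1r53 Y120C was read in 12 of 292 reads, Uroc1 H327R in 7 of 76, Nup210 L425F in 5 of 82 and Fam19a4 T17A in 4 of 88. None of these 4 reached 10% of reads. Another 2 marked calls of M57, found in no other leukemia, lay outside the tract: Hebp1 V86L on the same chromosome, at 135152963 and 0.042, and Thap1 L174L at 0.179.

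Marked sites altered proteins far less often than the rest of the table. Missense and essential splice changes made up 108 of 353 marked sites that were protein-altering or synonymous, 30.6% (95% interval 25.8 to 35.7), against 739 of 956 unmarked sites, 77.3% (74.5 to 79.9; two-sided Fisher exact p = 5.83e-54). Linked sites are not independent, so this p covers counting only. Leukemia by leukemia, over the 8 with at least 3 such calls of each kind, the share was 24.7% ± 15.8 among marked and 68.2% ± 9.79 among unmarked calls (SD). It was lower among marked calls in 8 of 8 leukemias, with a mean difference of −43.6 percentage points ± 21.2 (SD; exact sign-flip permutation p = 0.00781, the smallest that 8 leukemias allow). The 8 are not independent, because shared synonymous sites were counted in each leukemia that listed them. Nsd1 K1530K was counted in M53, M54, M56, M57 and M61. Phldb1 P1329P was counted in M24, M53, M57 and M61. At sites of 1 leukemia only, M22, M31 and M57 were left, and the difference was −32 points (exact permutation p = 0.25). With at least 5 calls of each kind only M31, M56 and M57 were left, and the difference was −23.8 points (exact permutation p = 0.25, the smallest that 3 allow).

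Unmarked calls inside the tracts had a protein-altering share near that of marked calls. It was 22 of 71, 31% (95% interval 20.5 to 43.1), beside 30.9% (25.9 to 36.3) for marked sites inside tracts, a difference of −0.05 percentage points (Fisher exact p = 1). Outside the tracts unmarked calls were protein-altering at 80.9% (81% without the unmarked Phldb1 call, which lies at a marked site), which differed from those inside (Fisher exact p = 4.7e-18, counting only). Marked sites outside tracts stood at 27.3% (9 of 33) against 81% of unmarked sites there (Fisher exact p = 9.49e-11).

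The T-to-C and C-to-T changes followed the same division, and the transition share did not. Transitions, changes between the purines or between the pyrimidines, were 73.3% of unmarked single-base calls inside tracts and 73.7% outside (Fisher exact p = 0.908). They were 80.1% of 638 marked single-base sites and 73.6% of 1134 unmarked ones (Fisher exact p = 0.00215). That difference did not pass inside the tracts alone (80.6% and 73.3%, p = 0.115), outside them (74.5% and 73.7%, p = 1) or without M31 (p = 0.606). Within leukemias it was 11.4 percentage points ± 19 (SD, n = 11), higher among marked calls in 9 of 11 (exact sign-flip permutation p = 0.0752), and 0.0178 points at sites of 1 leukemia only (5 leukemias, exact permutation p = 1). The classes behind the total were less alike. T-to-C changes, counted with their complement, made up 39% of marked sites (95% interval 35.2 to 42.9), 38.1% of unmarked sites inside tracts (28.8 to 48.1) and 11.9% of unmarked sites outside (9.94 to 14). C-to-T changes made up 41.1%, 35.2% and 61.8% of the same sets. Marked sites and unmarked sites inside tracts had overlapping intervals in both classes, and unmarked sites outside tracts lay apart from both. The M31 tracts held 571 of the 638 marked single-base sites, so the marked shares are mostly those of 1 leukemia. Outside tracts, the 22 marked calls found in only 1 leukemia other than M31 had 1 T-to-C and 15 C-to-T changes.

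**Figure D3:**
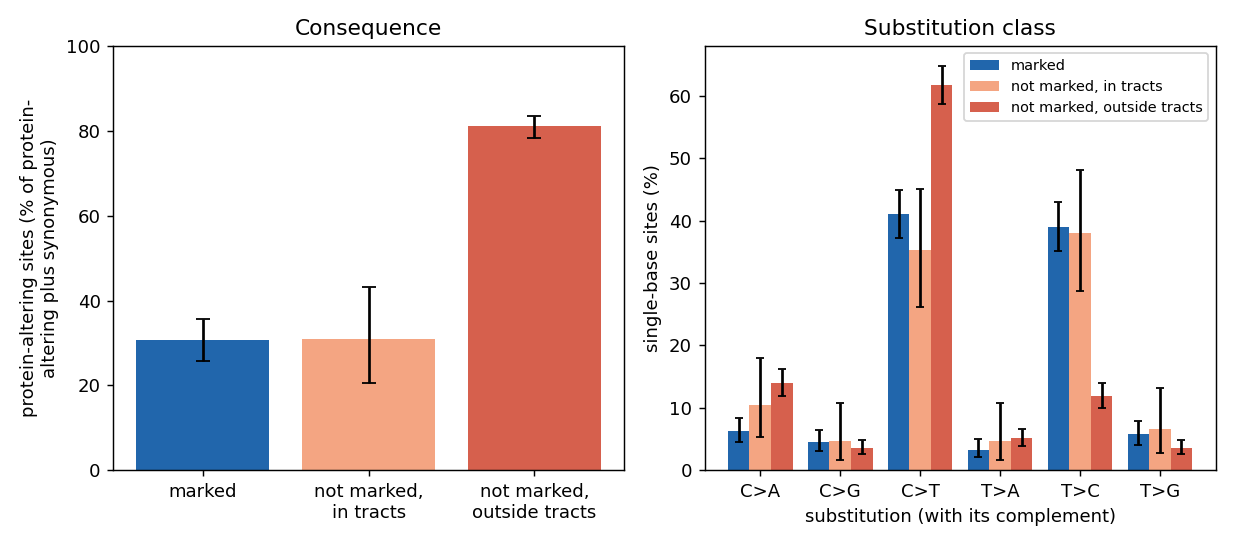
Left, protein-altering sites as a percentage of protein-altering plus synonymous sites; right, the 6 substitution classes as a percentage of single-base sites; bars are marked sites, unmarked sites in tracts and unmarked sites outside tracts, and error bars are exact 95% binomial intervals over distinct sites. Protein-altering shares are 30.6%, 31% and 81%, and T-to-C shares are 39%, 38.1% and 11.9%. The M31 tracts hold 571 of the 638 marked single-base sites.

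By annotation, 254 marked calls were synonymous, 197 intronic, 108 missense, 35 between genes, 30 in the splice region of an intron, 10 in a 3′ UTR and 7 in a 5′ UTR. None was a stop gain or a frameshift, and 2 changed an essential splice site. Loxl4, a lysyl oxidase of the extracellular matrix, had a G-to-T change at the acceptor of an intron in 18 of 36 reads. Gfra1, a co-receptor for GDNF, had a T-to-C change at the donor of an intron in 7 of 26 reads. Both were in M31 tracts on chromosome 19.

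The tracts of M31 covered 560 protein-coding genes by RefSeq symbols, and 236 of them (42.1%) had a marked call, from 13.9% in the chromosome 7 tract to 55.6% in the shortest chromosome 1 tract. They held 95 protein-altering and 215 synonymous marked calls. The protein-altering share ranged from 14.3% in the first chromosome 19 tract to 44.4% in the last.

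**Figure D4:**
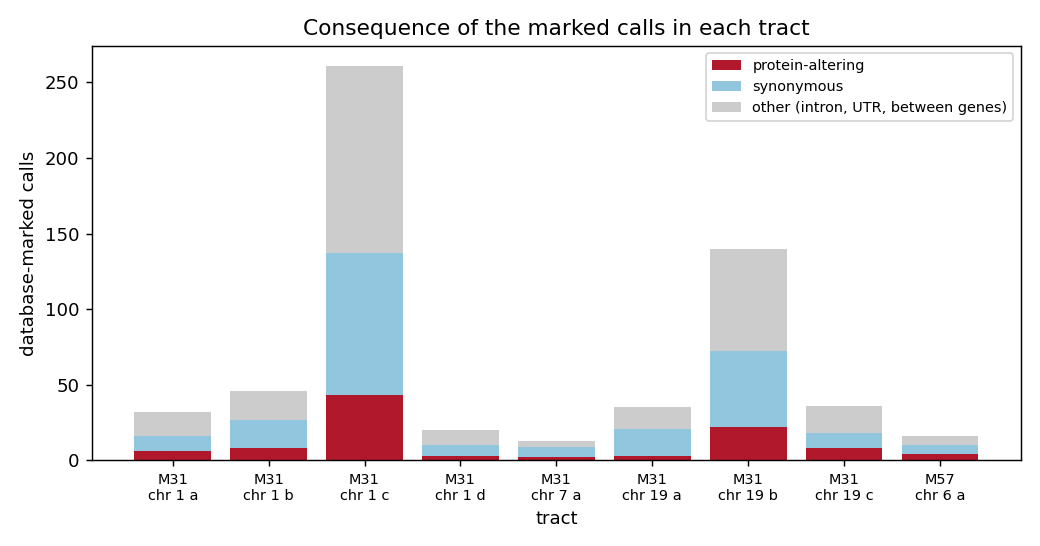
Number of database-marked calls in each tract, stacked by consequence (protein-altering, synonymous and all other annotations); bars start at 0 and each tract belongs to 1 leukemia. The longest chromosome 1 tract of M31 holds 43 protein-altering and 94 synonymous marked calls, and the M57 tract 4 and 6.

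Protein-altering marked sites fell in 86 genes, of which 14 had 2 or more and 5 had 3 or more. Crb1, a cell polarity protein of the retina, led with 5 (M1275V, H982Q, P942S, G886R and R745H), all in M31 at 0.328 to 0.429. Ptprv, a receptor-type tyrosine phosphatase, had Q1600E, V915A, V827L and I336V, with V827L the lowest at 4 of 26 reads. Kif14, a kinesin of cell division, had K340E, A556T and F1291L at 0.318, 0.292 and 0.333. Pdcd11, a factor of ribosomal RNA processing, had S531P, T919P and P1556L at 0.284, 0.326 and 0.348. Pyroxd2 had A322V, R234W and Q188H. Members with 2 sites in M31 were Sec31b (a coat protein of secretory vesicles; R847G and I48V), Cntnap5b (F175S and M1188V), R3hcc1l (A385V and V499I), Teddm1a (M119V and L261P), Foxd4 (Q408R and A248V), Lzts2 (P64R and H327Q) and Rbm20 (a splicing factor of heart muscle; G852R and T926P). Dsel had T937S in M31 at 0.288 and V837A in M53 at 0.022, so its 2 sites came from different leukemias. Rgsl1 had N350S beside 7 other marked sites.

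Several genes of the tracts had synonymous marked sites without, or nearly without, protein changes. Ipo9, an importin of nuclear transport, had 6 synonymous sites among 10 marked, and Cdh7, a cadherin, had 5 of 5. Gbf1, an exchange factor for Arf proteins, had 4, and none of these 3 genes had a protein-altering marked site. Cacna1e, a calcium channel subunit, and Thsd7b had 4 synonymous sites each beside 1 missense site (G1018E and T405I).

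Gene groups were read beside all protein-coding genes, of which 287 of 21896 (1.31%) had a marked call. Protein-altering marked sites fell in 86 genes over the whole table. Of the 21896, 621 lie in tracts. Inside the M31 tracts 42.1% of protein-coding genes had a marked call, and inside the M57 tract 16.4%. A list's share thus depends on how many members lie in each. No list was tested. The lists differ in how many of their genes lie in tracts, from 7 of 10 complement regulators to 16 of 1465 olfactory and vomeronasal receptors, and were made with the tracts known. Among 10 complement regulators, 3 had a marked call and 2 a protein change. These were Cd55, which protects cells from complement (A143S, 22 of 72 reads), and C4bp, a plasma inhibitor of complement (V284L, 31 of 147). Among 28 serpin B protease inhibitors, 12 of which lie in tracts, 2 had marked calls, Serpinb2 (S284R, 22 of 77 reads) and Serpinb8 (S20G, 33 of 86). Among 50 leukocyte receptors and immune signalling genes, 28 of which lie in tracts, 10 had a marked call and 3 a protein change. These were Cxcr4 V216I (24 of 60 reads; the receptor for the chemokine CXCL12), Ikbke S471G (22 of 87; a kinase of interferon and NF-kB signalling) and Pigr A159V (23 of 77; the receptor that carries IgA across epithelium). Ptprc had 5 marked calls, all intronic.

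Of 84 leukemia genes, 5 of which lie in tracts, 2 had marked calls, Cxcr4 and Nsd1, and only the Cxcr4 change was protein-altering. Among 389 protein-coding solute carrier genes, 12 of which lie in tracts, 6 had a marked call and 1 a protein change (Slc26a9 A617V, 21 of 77 reads). Slco6b1, a long noncoding RNA gene in RefSeq, had marked calls but is not in that count. Olfactory and vomeronasal receptors had them in 2 of 1465 (Vmn1r53 and Vmn1r89), cytochrome P450 enzymes in 2 of 99, zinc finger Zfp genes in 2 of 397 and nucleoporins in 1 of 21 (Nup210). In tracts lie 16 of the P450 genes, 7 of the Zfp genes and 1 of the nucleoporins. Of 4 genes known for coding differences between C57BL/6 substrains, 1 lies in a tract, Crb1, and it alone had marked calls. These were 5 missense changes in M31 and 1 intronic change in M22, none of them a frameshift. Whether any of them is a known substrain difference was not tested.

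Only 7 of the 651 marked sites came from more than 1 leukemia, and 644 belonged to a single one. The most widely shared, an A-to-G substitution at chromosome 14, position 53717147, was listed in 16 leukemias, all but M18. The deposited annotation places it between Olfr1507 and Dad1, and RefSeq places the position inside Trav7-6, a variable segment of the T cell receptor alpha locus (Tcra). Its allele fraction had a lowest value of 0.346 in M31, a median of 0.427 and a highest of 0.995. M54 (234 of 235 reads) and M61 (189 of 192) were near 1, and the other 14 lay from 0.346 to 0.509 in both tissues. Variable segments include groups of close copies, and whether reads were placed on the wrong copy was not tested.

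Phldb1 P1329P, a synonymous change at chromosome 9, position 44687687, was listed in 9 leukemias. The thymus leukemias had 1 in M18 (109 of 109 reads), 0.545 in M19, 0.605 in M21, 0.529 in M53, 0.549 in M55 and 0.489 in M61, and the bone marrow leukemias 0.545 in M23, 0.522 in M24 and 0.429 in M57. M18 was the only one without a reference read, and the tissues otherwise overlapped. Nsd1 K1530K, a synonymous change in a histone H3 lysine methyltransferase, was listed in 8 leukemias, all with NN numbers. Thymus leukemias had 0.284 in M53, 0.131 in M54, 0.049 in M55, 0.071 in M56 and 0.039 in M61. Bone marrow leukemias had 0.585 in M57, 0.794 in M58 and 0.122 in M59, so the 2 highest were in bone marrow and M59 lay within the thymus range. M60 was the only NN leukemia without the call, and the wild-type mouse was read 23 times at this site with no alternative read.

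**Figure D5:**
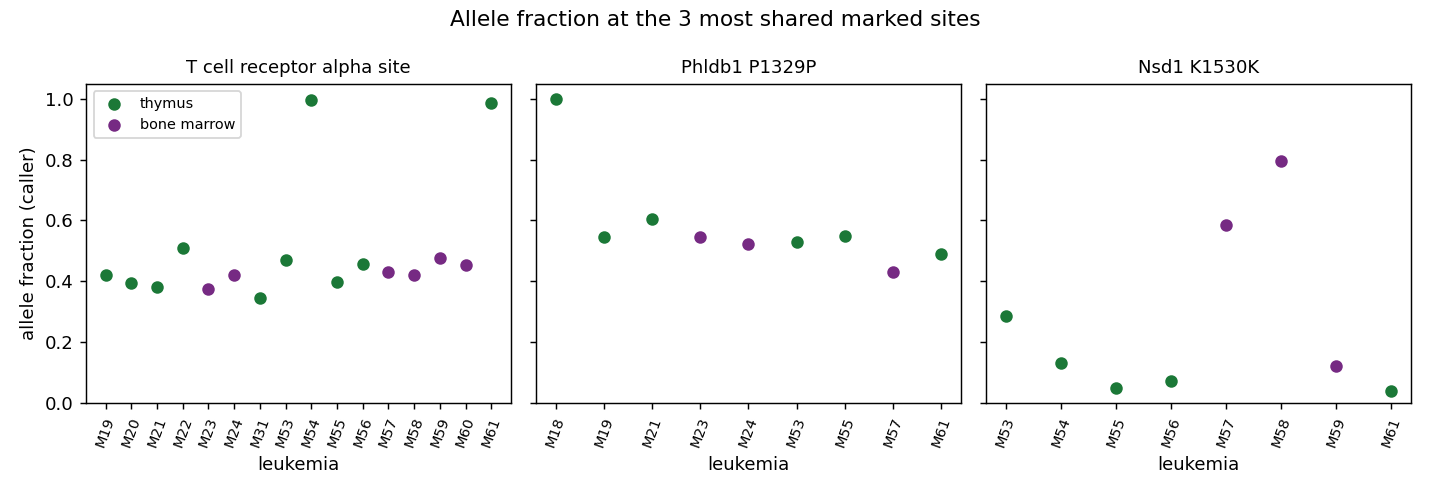
Allele fraction given by the caller (vertical axis) in each leukemia that lists the site, for the chromosome 14 site in the T cell receptor alpha locus, Phldb1 P1329P and Nsd1 K1530K; each point is 1 leukemia, coloured by tissue, and M19 is shown at Phldb1 although it lacks the flag. M54, M61 and M18 stand at or near 1, and Nsd1 spreads from 0.039 to 0.794.

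The other shared sites were at low allele fractions. Gm10512 was listed in M55, M56 and M57 at 0.02 to 0.027, the interval between Mup5 and Mup20 in M55 and M56 at 0.036 and 0.039, and Sp140 in M56 and M60 at 0.051 to 0.059. The Sp140 calls L369I and L369S were neighbouring bases of 1 codon with equal allele fractions, each annotated alone. Mup genes are a multigene family with close copies, and misplaced reads cannot be told apart from variants there.

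Over the 68 sites of the whole table listed in 3 or more leukemias, 6 (8.82%) differed in frequency between mice with and without NN by Fisher's exact test with Benjamini-Hochberg adjustment, and 16 had an unadjusted p under 0.05. Of the 4 marked sites among them, 1 did, Nsd1 K1530K, listed in 0 of 8 and 8 of 9 mice (adjusted p = 0.00932). Between thymus and bone marrow none of the 68 (0%) passed, with 2 at an unadjusted p under 0.05, neither of them marked. Nsd1 was listed in 5 of 11 thymus and 3 of 6 bone marrow leukemias, and Phldb1 in 6 and 3.

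Marked calls outside tracts and in 1 leukemia only numbered 45, in 10 leukemias. Their median allele fraction was 0.036, and 38 were below 0.10. M31 had 23 of them and the other leukemias 22, with 19 below 0.10 in each case. In M31, 13 of its 23 were T-to-C changes or the complement and 5 were C-to-T, whereas the others had 1 and 15 of 22, a difference that was noticed in the data and not tested. With at least 20 reads and a caller's allele fraction of at least 0.10, 1 protein-altering marked call outside tracts was left. This was Gm9758 E174D in M61, in 48 of 205 reads, with none of 167 in the wild-type mouse. Sult2a1 F179L in M22, in 120 of 301 reads, counts among the 38 below 0.10 because the caller's allele fraction was 0.00758. The wild-type mouse had 43 alternative reads of 148 there.

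Within leukemias the allele fractions of marked and unmarked calls were not separated beyond the spread between leukemias. Over 11 leukemias with at least 3 of each, the mean of the medians was 0.142 ± 0.128 for marked and 0.21 ± 0.123 for unmarked calls (SD), a difference of −0.068 ± 0.137 (exact sign-flip permutation p = 0.161). The difference was positive in M24, M31 and M53 and negative in the other 8. Depth at marked calls ranged from 5 to 370 reads with a median of 65, and the median depth over all calls of a leukemia from 49 in M21 to 148 in M18.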

How the data were processed

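Per the labels' protocols, exome DNA was captured with a mouse all-exon kit. BWA 0.7.17, bcl2fastq 2.17.1.14 and GATK (version not given in the sources used here), with the builds mm10 and GRCm38, are credited to the submitters' processing notes, and the labels name MuTect2 as the caller. The deposited table holds, for each call, read counts of the reference and alternative allele and depth in the leukemia and in the wild-type mouse, and the caller's allele fraction, per the file headers. Every deposited call has the filter value PASS and lies in a bait region, so calls the authors filtered out are not seen. Another 28 columns of per-sample numbers were not used. Rows may be missing from the table used here.

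Calls with the database flag were taken as marked. Missense, essential splice and other coding changes were counted as protein-altering. Shares carry exact 95% binomial intervals. PCR reads are not independent molecules, so intervals cover counting error only. Differences between groups of leukemias were tested by exact permutation, shares over distinct sites by Fisher's exact test and differences within leukemias by exact sign flips. Each leukemia is 1 mouse. Sites listed in at least 3 leukemias were tested with Benjamini-Hochberg adjustment. The statistics were tested on simulated data. Genes named are the 15 with most protein-altering and the 5 with most synonymous marked sites, marked essential splice calls, shared marked sites, listed genes with a protein-altering marked call, ends of tracts, and protein-altering calls outside tracts with depth of at least 20 and allele fraction of at least 0.10. Members, 11 gene lists and rules were chosen with earlier results of these data known. Python 3.11.15, numpy 2.4.6, pandas 2.3.3, scipy 1.17.1 and matplotlib 3.10.9 were used. RefSeq symbols, also through synonyms, matched genes. Some listed genes are not reported here.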

Additional observations from a re-analysis of the deposited data

Results flagged for a closer look

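In the number of marked calls, M57 and M31 were far from the rest of their groups. M57 with 22 stood above the other bone marrow leukemias, the next having 4, and above the other NN leukemias, where M57 again had 22 and the next 9. M31 with 607 stood above the other leukemias without NN, the next having 7. At Phldb1 P1329P, M18 had an allele fraction of 1 among the thymus leukemias, the next being 0.605. Of 8 groups looked at in this way, 4 had such a value. The flag set the gap to the next value, as a share of the group's range, against a critical value. Its rate of about 1 in 20 by chance assumes independent groups. These groups overlap, with M57 counted in both bone marrow and NN, so no comparison with chance is drawn.

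A signal in the wild-type mouse stood out at Sult2a1 F179L in M22, where the mouse had 43 alternative reads of 148. M22 had 120 of 301 reads there, while the caller's allele fraction was 0.00758. Sult2a1 belongs to a family of close copies, and the part of misplaced reads in these counts was not tested.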

How the results depend on the processing

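The difference in marked calls between thymus and bone marrow reversed within NN mice (−1.65) and, over leaving out each leukemia, ran from −1.53 without M31 to 59.1. The difference between mice without and with NN reversed as a difference of medians (−2.5) and within bone marrow (−4.25), and ran from −3.33 without M31 to 83.2. The values within NN mice and within bone marrow both include M57, with 22 marked calls. The transition share was 7.25 percentage points higher among marked sites inside tracts (p = 0.115), 0.846 outside them (p = 1, chosen after seeing the data) and 4.07 without M31 (p = 0.606), and no longer passed. The protein-altering share differed by −0.0484 inside tracts (Fisher exact p = 1) and kept its direction and call under 7 of 8 alternatives, −45.2 without M31 included. Within leukemias it was −23.8 with at least 5 calls and −32 at sites of 1 leukemia (added after seeing the data), both exact permutation p = 0.25 with 3 leukemias, the smallest possible, and −46.6 to −39.2 leaving out each leukemia. Leaving out each leukemia, the allele fraction difference ran from −0.0937 (without M24, exact permutation p = 0.0488) to −0.0511, and the transition difference within leukemias from 8.97 to 15.7 (without M56, exact permutation p = 0.00586). With at least 5 calls they were −0.101 and 8.33, and at sites of 1 leukemia −0.0135 (exact permutation p = 0.75) and 0.0178 (exact permutation p = 1). Tracts numbered 5 with gaps up to 10 Mb and held 565 to 599 marked calls over the 4 other settings. The single-base share was 98% of marked and 78.2% of unmarked sites (Fisher exact p = 1.49e-39, counting only) and kept its call under 7 of 7. Inside tracts it was 98% of marked and 82% of unmarked sites (Fisher exact p = 1e-10). Unmarked calls were single-base at 82% inside and 77.85% outside tracts (Fisher exact p = 0.313), so in this share those inside did not lie near the marked ones. No paired analysis was possible because each leukemia is 1 mouse in 1 tissue, and replicate numbers, given in accession order, pair no mice between tissues. Depth, down to 5 reads at a call, limits single allele fractions; the causes of these changes were not tested.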
